A study of Mus musculus with 37 samples.

Results

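The genes described here were 10 members of the retinoblastoma and INK4 checkpoint, which holds cells before DNA synthesis. They were the entries for Cdkn2a, Cdkn2b, Cdkn2c, Cdkn1b, Rb1, Rbl1, Rbl2, Ccnd1, Cdk4 and Cdk6 among the 24421 gene symbols of the whole transcriptome sequencing (WTS) table, taken by name, and all 10 were found and tested in every comparison. RNA came from the upper urinary tract and bladder of wild-type female BALB/c mice, and the table held 37 libraries. The ureter libraries formed 3 groups. UT was upper urinary tract from the side with cancer, in mice given N-butyl-N-(4-hydroxybutyl) nitrosamine (BBN), a urothelial carcinogen, for 18 weeks (11 libraries of 10 mice). UN was the side without cancer in such mice (7 libraries of 7 mice), and U was the ureter of mice given tap water (6 libraries, both sides of 3 mice). BB was the bladder of the BBN-treated mice (10 libraries of 10 mice) and B the bladder of the 3 untreated mice. UT, UN and BB libraries with the same number came from the same mouse, and UT 5R and UT 5L were both sides of mouse 5. Because U rests on 3 animals sampled on both sides, and libraries of one mouse were taken as independent in the main tests, p-values measured the spread between these libraries.

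In the textbook scheme, D-type cyclins bind Cdk4 and Cdk6, the kinase phosphorylates Rb1 and its relatives Rbl1 and Rbl2 (the pocket proteins), and E2F factors are then free to drive the genes of DNA replication. INK4 proteins (Cdkn2a, Cdkn2b, Cdkn2c) block Cdk4 and Cdk6 directly, and Cdkn1b (p27) blocks the later cyclin E and Cdk2 step. Loss of this brake is common in urothelial cancer, and Cdkn2a RNA is known to build up in cells in which Rb1 has been lost.

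Totals per library ran from 3557697 to 18793560 counts. In 5 libraries the RNA integrity number given by the study was under 5 (BB 1, BB 3, BB 4, UN 6 and U 1R), and in the 4 of these from BBN-treated mice the 10 most abundant genes took 21.5% to 35.5% of counts. UT 9 and BB 6 stayed out of the main tests but not out of the levels, UT 9 since the study counted 10 UT libraries (that UT 9 is the one left out is an assumption, as the count does not name it) and BB 6 since its library name carries a T. The bulk pieces differed in makeup. The summed level of 10 urothelium markers was 20300 to 21300 CPM (counts over the library total, per 1000000 counts) in B, 1530 to 3050 in U, 33.3 to 10200 in UN, 1320 to 11300 in UT and 1460 to 14900 in BB. The summed level of 6 adipocyte markers was 44800 to 69500 CPM in U, 10300 to 61400 in UN, 56.2 to 38500 in UT, 95 to 5130 in BB and 449 to 2340 in B. No marker of either list was at 0 in all libraries of a group. The summed level of 3 neutrophil markers was 4.98 to 8.96 CPM in U and 19.2 to 502 in UT, that of 4 T cell markers 4.24 to 13.2 and 0.731 to 125, and that of 4 macrophage markers 148 to 238 and 189 to 786. UT 4 stood apart with 2190 CPM of 6 kidney tubule markers, against at most 39.9 in all other libraries. In bulk RNA, fewer cells of a type and less RNA per cell cannot be told apart.

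Start regions are shown for Rbl1, which holds an E2F motif there, and for Cdkn2a, whose transcripts start at separate sites. The table of RefSeq (GRCm38.p6) start regions used here, 250 bases before to 50 after the start, gave 10 for 8 of the 10 genes, and Rb1 and Ccnd1 were not searched. Each region was searched on both strands for TTTCGCGC and TTTGGCGC, the classical E2F motif, with capitals marking a match. Of these 8 genes, Rbl1 alone had one, at position -18 from the start. The motif was in 267 of all 32851 start regions (0.81%) and in 8 of 22 of a hand-written list of E2F target genes (36.36%).
Rbl1, chr2:157204485-157204784, minus strand: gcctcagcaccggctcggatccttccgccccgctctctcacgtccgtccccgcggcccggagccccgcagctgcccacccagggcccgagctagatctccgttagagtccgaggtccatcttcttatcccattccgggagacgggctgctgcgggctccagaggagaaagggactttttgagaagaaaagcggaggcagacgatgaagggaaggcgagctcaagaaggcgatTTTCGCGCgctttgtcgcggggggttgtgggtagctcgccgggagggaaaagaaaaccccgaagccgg
Cdkn2a has a pair of starts 12427 bases apart. The upstream start gives the transcript of p19ARF, which guards p53, and the downstream start gives that of p16INK4a, the kinase inhibitor. The table holds 1 value per symbol, so these transcripts were measured together.
Cdkn2a, upstream start, chr4:89294570-89294869, minus strand: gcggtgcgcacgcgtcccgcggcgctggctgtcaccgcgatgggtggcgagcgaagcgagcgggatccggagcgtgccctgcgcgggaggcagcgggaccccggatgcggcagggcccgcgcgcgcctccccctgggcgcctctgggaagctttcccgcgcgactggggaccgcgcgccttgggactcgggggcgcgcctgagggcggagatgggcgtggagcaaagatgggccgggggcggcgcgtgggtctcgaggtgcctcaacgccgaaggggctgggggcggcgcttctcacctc
Cdkn2a, downstream start, chr4:89282143-89282442, minus strand: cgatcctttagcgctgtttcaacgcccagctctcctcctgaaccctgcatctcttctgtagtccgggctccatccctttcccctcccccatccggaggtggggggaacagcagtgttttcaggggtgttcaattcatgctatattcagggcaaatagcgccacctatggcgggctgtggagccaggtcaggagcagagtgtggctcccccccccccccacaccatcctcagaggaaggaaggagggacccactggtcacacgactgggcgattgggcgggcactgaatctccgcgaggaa

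Per kb of exon (GENCODE models, GRCm38), Cdk4 had the highest median level of the 10 genes in UT (63.7 CPM per kb), UN (40.6), BB (64.6) and B (47.1). In U the first place was held by Cdkn2c (44.3 CPM per kb), with Cdk4 next (24.9). Cdkn2a was the lowest of the 10 in UN (0.548), U (0.0227) and B (0.0568) and ranked 9 of 10 in UT (1.89) and 8 of 10 in BB (2.70). Reads from overlapping genes on the other strand cannot be told apart in these libraries, and such overlap covered 23% of Ccnd1 exon bases, 20% of those of Cdk4, and up to 12% with any 1 gene for Rbl2, 8% for Rb1 and 3% for Cdk6.

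**Figure D1:**
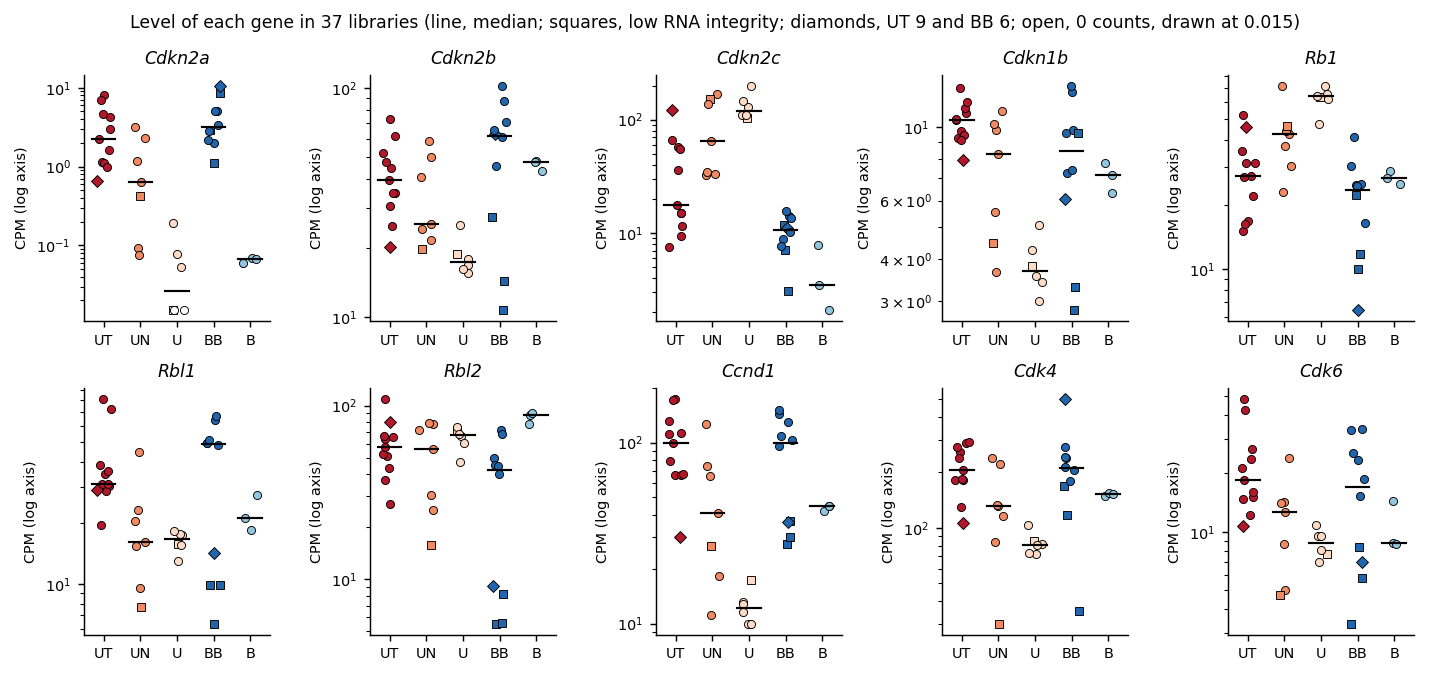
Level of the 10 genes in each of 37 libraries, as CPM on a log axis, with a line at the median of each group. Cdkn2a was at 0 or at most 0.191 CPM in U and at 0.661 CPM or more in UT, while Cdkn2c and Rb1 had their highest medians in U.

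Against untreated ureter, all 10 genes passed the main test in cancerous ureter, and 9 of them with UT 9 put back, Rbl2 being lost. With edgeR's quasi-likelihood test and Benjamini-Hochberg adjustment over 15615 genes, 7 members were higher in UT than in U at adjusted p under 0.1 (29.4% of all genes tested were) and 3 were lower (24.7%). With a change of at least 2-fold as well, 5 were higher (Cdkn2a, Cdkn1b, Ccnd1, Cdk4 and Cdk6, 18.6% of all genes) and 2 were lower (Cdkn2c and Rb1, 14.4%). Without UT 4, 7 were higher and 3 lower at adjusted p alone, as with it, and 7 and 2 with 2-fold. The part of tissue makeup in these differences was not tested. In UN, 4 members were higher than in U (15.1% of all genes were), 2 of them at least 2-fold (Cdkn2a and Ccnd1, 11.9%), and 0 were lower at edgeR adjusted p under 0.1 (5.63%), against 1 by limma-trend and 0 by DESeq2. Counts summed per mouse left 0 calls in UN (4 members with unadjusted p under 0.05) and gave 7 higher and 2 lower in UT. Of all 16289 genes in that fit, 147 were higher and 17 lower in UN, and 2864 were higher and 2514 lower in UT.

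Between UT and UN, 3 members were higher in UT (Rbl1, Ccnd1 and Cdk6, 6.26% of all genes) and 2 were lower (Cdkn2c and Rb1, 12.3%). Only Cdkn2c also passed 2-fold, downwards (7.97%), and 0 passed it upwards (2.80%), against 1 by DESeq2 and 2 by limma-trend. These calls depended on the fit. With all 11 UT libraries, 1 member was higher (Rbl1), Ccnd1 (edgeR adjusted p = 0.13) and Cdk6 (0.108) being lost, 2 were lower, and 377 of all genes were higher where 978 were without UT 9. UT 9 had the highest adipocyte sum and Cdkn2c of UT and the lowest Ccnd1, Cdk4 and Cdk6. With the mouse as a replicate block, on the 6 mice with both sides, 0 members passed (1 had an unadjusted p under 0.05), as did 0 of all 15048 genes. Without the libraries of low RNA integrity 0 members passed as well (6 with unadjusted p under 0.05), and of all genes 4 were higher (0.0255%) and 1 lower (0.00637%). With RNA integrity as a covariate 0 members passed (3 with unadjusted p under 0.05), as did 0 of all 15615 genes. With only UT and UN in the fit 0 members passed (6 with unadjusted p under 0.05), and 1 of all 15048 genes. Counts summed per mouse gave 0 members (7 with unadjusted p under 0.05), and 4 of all 16289 genes.

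In bladder, BBN came with 3 of the 10 genes higher, each at least 2-fold (Cdkn2a, Cdkn2c and Ccnd1, where 7.08% of 17984 genes were, and 7.3% by adjusted p alone), and 0 lower at edgeR adjusted p under 0.1 (6.08%, and 5.47% with 2-fold), against 1 by DESeq2 and 0 by limma-trend. DESeq2 called 5 higher, Rbl1 (adjusted p = 0.0793) and Cdk6 being added, 4 of them at least 2-fold, and called 4908 of all genes higher where edgeR called 1313. Without BB 1, BB 3 and BB 4, 5 were higher at least 2-fold (12.1% of all genes), with Rbl1 and Cdk6 added. At adjusted p under 0.1 alone, 7 were then higher (22.8%) and 1, Rbl2, lower (19%). The difference of UN from U was not shown to differ from that of BB from B, and UT was not tested for this. In the interaction of BBN and tissue, over UN, U, BB and B, 0 members passed in edgeR (1.65% of genes were higher and 0.682% lower), 1 had an unadjusted p under 0.05 (12.3% of genes did), DESeq2 called 0 and limma-trend called 1. Cdkn2c came nearest in edgeR (log2 difference -1.96 ± 0.74 (SE), adjusted p = 0.248), and without the libraries of low RNA integrity Rbl1 passed (-1.12 ± 0.34, adjusted p = 0.0606, where 3.08% of genes were lower). UT and BB, mostly of the same mice, differed in 1 member, Cdkn2c (3.63% of genes were higher in UT by at least 2-fold). The call was lost with limma-trend, mouse as a random effect, the replicate block, without the libraries of low RNA integrity and in 9 of 19 fits that left out 1 library. Untreated ureter differed from untreated bladder by at least 2-fold in 4, with Cdkn2c and Rb1 higher in U (7.04% of genes) and Cdkn2b and Ccnd1 lower (8.73%).

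In the CPM values themselves, 5 members (Cdkn2a, Cdkn1b, Rbl1, Ccnd1 and Cdk4) were higher in all UT than in all U libraries, as were 14.6% of genes, and 0 members separated UT from UN (0.0124% of genes were higher throughout), UN from U (2% higher, 1.33% lower) or UT from BB (0.0231% higher, 0.115% lower). Cdkn2a was higher in all BB than in all B libraries (5.2% of genes were) and Rbl2 lower (12.9%). In U against B, 2 members were higher throughout (16%) and 6 were lower (47.2%).

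**Figure D2:**
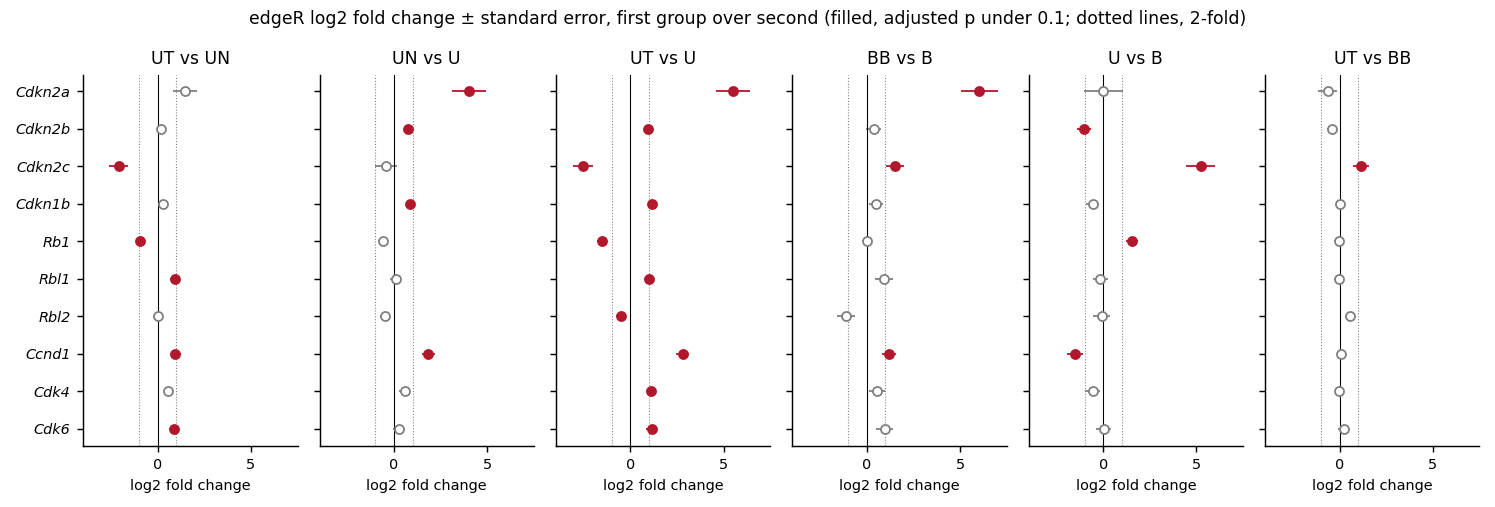
Log2 fold change of each gene with its standard error in 6 comparisons, the first-named group over the second, from edgeR. Filled points passed an adjusted p of 0.1, and dotted lines mark 2-fold. All 10 points are filled for UT against U, and 1 is for UT against BB.

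Cdkn2a (chr4:89274471-89294653, minus strand) was at or under 3 counts, the floor used here, in every untreated library and in 3 of 7 UN libraries, and above it in all UT and BB libraries. UN 2 and UN 9 had 1 count each and UN 6 had 2. In U, 3 of 6 libraries had 0 counts and the others had 1 to 3 (U 1L, 0.191 CPM). In B, each of the 3 libraries had 1 count (0.0602, 0.0666 and 0.0697 CPM). UT ran from 0.661 CPM (UT 9) through a median of 2.22 to 8.14 (UT 1), and UN from 0.0748 CPM (UN 9) through 0.642 to 3.16 (UN 7). BB ran from 1.12 CPM (BB 3) through 3.16 to 10.6 (BB 6). All UT libraries lay above all U libraries, and all BB libraries above all B libraries, while 5 of 7 UN libraries lay above U.

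Pooled over the 10 UT libraries, Cdkn2a had 439 counts against 5 in the 6 U libraries, a ratio of CPM of 59.5 (95% interval 25.3 to 184, exact binomial, counting error only). The ratio was 24.1 for UN over U (9.99 to 75.6) and 54.9 for BB over B (18.6 to 267), where B had 3 counts in all. In edgeR the log2 fold change was 5.5 ± 0.90 (SE, adjusted p = 8.4e-05) for UT over U, 4.02 ± 0.91 (adjusted p = 0.00693) for UN over U and 6.02 ± 0.99 (adjusted p = 0.00178) for BB over B. With at most 3 counts in each untreated library, Cdkn2a passed the filter on low counts only through BBN-treated libraries. With UN and U alone the filter removed it, so its UN test rested on UT libraries in the fit. These p-values are therefore no support beyond the counts above. The fitted size depended on the tool and the libraries. By limma-trend it was 3.30 for UT over U, 1.83 for UN over U and 3.69 for BB over B. Without U 1L, which held 3 of the 5 counts of U, edgeR gave 6.37 for UT and 4.89 for UN over U. With counts summed per mouse the UN difference from U missed the threshold (edgeR adjusted p = 0.119, with the other alternatives down to 0.000281).

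Between UT and UN, Cdkn2a was 1.47 ± 0.63 higher on the log2 scale in UT and did not pass (edgeR adjusted p = 0.124). It passed in DESeq2 (adjusted p = 0.0749), limma-trend (0.0637) and edgeR with library code range as a covariate (0.0709), and in the 9 other settings it did not, at 0.119 to 0.789. Leaving out UN 3, UN 7 or UT 8, 1 at a time, brought it to an edgeR adjusted p of 0.0653, 0.0524 and 0.0869. The 2 sides of 1 mouse differed widely: mouse 1 had 8.14 CPM in UT and 0.642 in UN, mouse 2 had 3.02 and 0.0914, while mouse 7 had 1.14 in UT and 3.16 in UN. UT was above UN in 5 of 7 mice. UN 2, with a urothelium marker sum of 33.3 CPM, and UN 9, with 1620, were the 2 UN libraries under 0.1 CPM, while UN 6, with 1090, had 0.428. The part of urothelium content in the UT and UN values was not tested. The untreated bladders had the highest urothelium sums of any group and 1 Cdkn2a count each. UT against BB was -0.62 ± 0.51 on the log2 scale (edgeR adjusted p = 0.488).

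**Figure D3:**
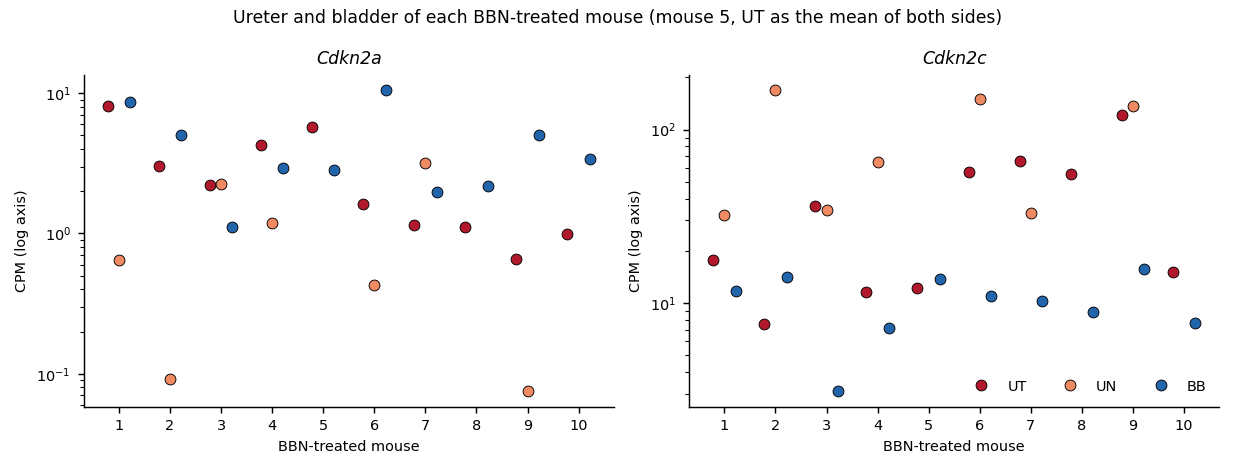
Cdkn2a and Cdkn2c in the cancerous ureter, noncancerous ureter and bladder of each of 10 BBN-treated mice, as CPM on log axes. Cdkn2a was higher in UT than in UN in 5 of 7 mice, and Cdkn2c was higher in UN than in BB in 7 of 7.

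Cdkn2b (p15, chr4:89306299-89311039, minus strand), the INK4 neighbour of Cdkn2a and a known target of TGF-beta signaling, was far more abundant and moved less. It ran from 20.1 CPM through 39.4 to 72.7 in UT, from 19.7 through 25.5 to 58.5 in UN and from 15.6 through 17.4 to 25.1 in U. BB ran from 10.7 CPM (BB 3) through 61.7 to 102, and B had 43.2, 47.4 and 48.1. The ureter groups overlapped, with 9 of 11 UT libraries above all of U. Cdkn2b was higher than in U in both UT (log2 0.94 ± 0.24, edgeR adjusted p = 0.00338) and UN (0.77 ± 0.26, adjusted p = 0.0501), the latter lost without UN 3, U 1L, U 2L or U 3R (adjusted p = 0.101 to 0.145). It was lower in U than in B in every library, and by -1.01 ± 0.37 (edgeR adjusted p = 0.0711), a call lost in 13 of 25 fits that left out 1 library. In BB it was split: the 3 bladders of low RNA integrity had 10.7 to 27.3 CPM and all others 45.5 or more. Without those 3 it was higher in BB than in B by 0.63 ± 0.25 (edgeR adjusted p = 0.074), and with them by 0.36 ± 0.42 (adjusted p = 0.591).

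Cdkn2c (p18, chr4:109660876-109667189, minus strand), the third INK4 member, went the other way in ureter. It was highest in U, at 103 CPM (U 1R) through 119 to 199 (U 3L). UN ran from 32.2 CPM (UN 1) through 64.7 to 170 (UN 2), and UT from 7.56 (UT 2) through 17.8 to 121 (UT 9). In bladder it was low, at 3.09 through 10.7 to 15.8 CPM in BB and 2.09, 3.49 and 7.79 in B. All U libraries exceeded all B libraries, and 10 of 11 UT libraries lay below all of U.

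In edgeR, Cdkn2c was 5.22 ± 0.77 higher on the log2 scale in U than in B (adjusted p = 0.0001). It fell by 2.54 ± 0.52 from U to UT (adjusted p = 0.000514) and was -2.10 ± 0.50 in UT against UN (adjusted p = 0.0341). The last call kept its direction in all 12 other settings but missed the threshold in 5 of them, with an edgeR adjusted p of 0.789 and a log2 value of -1.51 with the mouse as a replicate block, and 0.109 and -1.76 without the libraries of low RNA integrity. UN was -0.44 ± 0.57 against U (adjusted p = 0.633). In bladder it was higher with BBN, by 1.49 ± 0.48 (edgeR adjusted p = 0.0744), but not without B 1 (0.301), B 3 (0.321) or BB 9 (0.106). UT exceeded BB by 1.15 ± 0.41 (edgeR adjusted p = 0.0798), which was lost with the mouse as a replicate block (0.375).

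Adipocyte markers moved with Cdkn2c. In UT against U all 6 were lower by at least 2-fold, in UT against UN 2 of 6 were, and in U against B all 6 were higher by at least 2-fold. Library by library, UT 9 had the highest adipocyte sum of UT (38500 CPM) and the highest Cdkn2c, UT 2 the lowest of both (56.2 CPM), and UN 2 (61400) and U 3L (69500) led their groups in both. Other UN libraries went the other way. UN 6 had 151 CPM of Cdkn2c at a sum of 16200, and UN 1, with 21100, had the lowest Cdkn2c of UN (32.2). In bladder no adipocyte marker passed with BBN, and the sums of BB and B overlapped. The part of fat in the Cdkn2c differences was not tested.

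**Figure D4:**
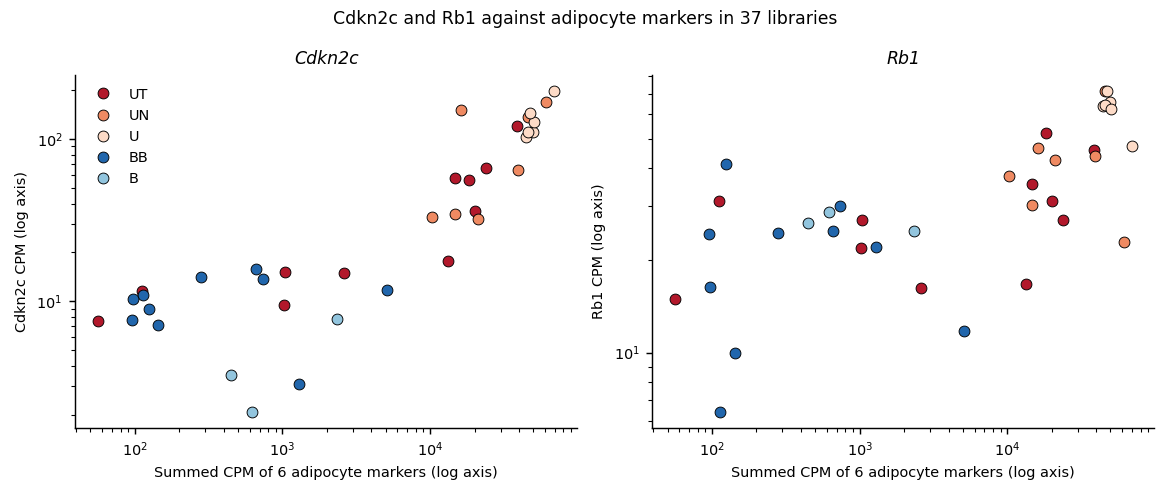
Cdkn2c (left) and Rb1 (right) against the summed level of 6 adipocyte markers in 37 libraries, both as CPM on log axes. Ureter libraries with sums of 10300 CPM or more had 17.8 to 199 CPM of Cdkn2c, and bladders, with sums of at most 5130, had at most 15.8.

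Cdkn1b (p27, chr6:134920401-134925513, plus strand), the CIP/KIP inhibitor of cyclin E with Cdk2, was low and rose in both BBN ureter groups. U ran from 2.99 CPM through 3.70 to 5.08, UN from 3.66 through 8.28 to 11.2 and UT from 7.93 through 10.5 to 13.1. BB ran from 2.81 CPM through 8.49 to 13.3, and B had 6.34, 7.16 and 7.79. All UT libraries lay above all U libraries, and 5 of 7 UN libraries did. The log2 difference from U was 1.13 ± 0.18 in UT (edgeR adjusted p = 5.24e-05) and 0.84 ± 0.18 in UN (adjusted p = 0.00586, and 0.137 with counts summed per mouse). UT and UN (0.29 ± 0.16, adjusted p = 0.222) and BB and B (0.48 ± 0.38, adjusted p = 0.417) did not pass.

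Rb1 (chr14:73183673-73325822, minus strand), the retinoblastoma protein itself, was detected in every library and was lowest in the cancerous ureter of the 3 ureter groups. U ran from 47.3 CPM (U 3L) through 64.2 to 71.6, UN from 22.9 (UN 2) through 42.6 to 71.7 (UN 9) and UT from 15.0 (UT 2) through 27.2 to 52.1 (UT 8). BB ran from 6.42 CPM (BB 6) through 23.3 to 41.2, and B had 25, 26.5 and 28.8. Of the UT libraries, 10 of 11 lay below all of U, and Rb1 was lower in UT than in UN in 6 of 7 mice. On the log2 scale it was -1.53 ± 0.25 in UT against U (edgeR adjusted p = 7.08e-05) and -0.94 ± 0.24 against UN (adjusted p = 0.0347, and 0.789 with the mouse as a replicate block at -0.77). The call against UN held in 7 of 12 other settings. UN against U was -0.59 ± 0.27 (adjusted p = 0.148), which passed without UN 6 (0.059) or UN 9 (0.0455), with limma-trend (0.09), with mouse as a random effect (0.0592) and without the libraries of low RNA integrity (0.093).

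In bladder Rb1 was 0.01 ± 0.28 on the log2 scale in BB against B (edgeR adjusted p = 0.984), and it was higher in U than in B by 1.53 ± 0.33 (adjusted p = 0.00278) with no overlap of libraries. Adipocyte markers moved with Rb1 across the groups, U having the highest of both. UT 2 was lowest of UT in both, UT 9, with the highest adipocyte sum of UT, had 45.9 CPM of Rb1, and UN 9, with 46200 CPM of adipocyte markers, had the highest Rb1 of UN. U 3L, with the highest sum of all, had the lowest Rb1 of U, and UN 2, with the highest sum of UN, had the lowest of UN. Over the 37 libraries, which share groups and mice, the Pearson correlation of Rb1 with the adipocyte sum was 0.66. The part of tissue makeup in these differences was not tested.

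Rbl1 (p107, chr2:157145893-157204534, minus strand), a pocket protein that is itself an E2F target and the member whose start region holds the E2F motif shown above, went up in cancerous ureter. UT ran from 19.4 CPM (UT 1) through 31.0 to 81.2 (UT 10), UN from 7.7 (UN 6) through 16.1 to 44.6 (UN 7) and U from 13.0 through 16.7 to 18.3. BB ran from 6.39 CPM (BB 4) through 48.5 to 66.9, and B had 18.4, 21.1 and 27.4. All UT libraries lay above all U libraries. The log2 difference was 0.99 ± 0.28 for UT over U (edgeR adjusted p = 0.00646) and 0.91 ± 0.27 for UT over UN (adjusted p = 0.0446), the latter missed without UN 6 (0.103) and with the mouse as a replicate block (0.74, adjusted p = 0.789). The call over UN held in 7 of 12 other settings, across which the log2 difference ran from 0.51 to 1.0. UN against U was 0.08 ± 0.29 (adjusted p = 0.886).

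BB fell into 2 sets for Rbl1. The 6 bladders of intact RNA in the main test had 48.0 to 66.9 CPM, all above B, while BB 1, BB 3 and BB 4 had 6.39 to 9.94 and BB 6 had 14.2. Over 9 bladders the difference was 0.92 ± 0.49 (edgeR adjusted p = 0.221), and over the 6 it was 1.28 ± 0.20 (adjusted p = 0.000916).

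Rbl2 (p130, chr8:91070057-91123844, plus strand), the pocket protein of resting cells and of the DREAM repressor complex, had its groups close in ureter. UT ran from 27 CPM through 57.5 to 109 (UT 8), UN from 15.6 (UN 6) through 55.9 to 79.8 and U from 47.2 through 67.5 to 74.7. The groups overlapped throughout. UT was -0.52 ± 0.24 against U on the log2 scale (edgeR adjusted p = 0.0809, missed in 10 of 23 fits that left out 1 library, at 0.107 to 0.134, and with no filter on low counts, RNA integrity as a covariate, all 11 UT libraries or counts summed per mouse, at 0.105 to 0.27), and UT against UN was -0.01 ± 0.23 (adjusted p = 0.979).

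In bladder Rbl2 was lower with BBN in every library, at 5.52 CPM through 42.4 to 71.8 in BB against 78.3, 87.8 and 91.0 in B, and the groups did not overlap. The 3 bladders of low RNA integrity had 5.52 to 8.15 CPM and BB 6 had 9.09, against 40.2 or more in the others. Stromal marker sums of BB lay below those of B for fibroblast and smooth muscle and overlapped with them for endothelium. The summed level of 2 endothelium markers was 74 to 112 CPM in B and 9.79 to 138 in BB (median 17.5), that of 3 fibroblast markers 2440 to 3450 in B and 533 to 2410 in BB, and that of 7 smooth muscle markers 9030 to 10900 in B and 992 to 7490 in BB. The part of tissue makeup was not tested. The log2 difference was -1.12 ± 0.50 with the former (edgeR adjusted p = 0.164) and -0.70 ± 0.19 without them (adjusted p = 0.0178). On library totals U also lay below B throughout, like many genes, but the fit, which scales libraries by TMM (trimmed mean of M values), gave -0.09 ± 0.47 (adjusted p = 0.94).

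Ccnd1 (cyclin D1, chr7:144929931-144939925, minus strand), the D-type cyclin of the set and a gene often amplified in human cancers, was higher than in U in both UT and UN. U ran from 10 CPM through 12.2 to 17.3, UN from 11.1 (UN 2) through 40.8 to 127 (UN 7) and UT from 30.2 (UT 9) through 99.8 to 174 (UT 2). BB ran from 27.6 CPM (BB 1) through 99.7 to 151, and B had 41.9, 44.8 and 44.8. All UT libraries and 6 of 7 UN libraries lay above all of U. The exception, UN 2, was the library with the urothelium sum of 33.3 CPM, and UT 9 had the lowest urothelium sum of UT (1320 CPM). The part of urothelium content was not tested.

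By edgeR, Ccnd1 was higher than in U by 2.80 ± 0.36 on the log2 scale in UT (6.96-fold, adjusted p = 1.32e-05) and by 1.84 ± 0.36 in UN (3.59-fold, adjusted p = 0.0027, and 0.112 with counts summed per mouse). UT exceeded UN by 0.95 ± 0.31 (adjusted p = 0.0596), a call missed without UT 2 (0.104), UN 2 (0.112), UN 6 (0.12) or UN 9 (0.118), and with the mouse as a replicate block (0.91, adjusted p = 0.789). The call held in 6 of 12 other settings. In bladder it was higher with BBN by 1.21 ± 0.37 (edgeR adjusted p = 0.0583). Leaving out any of the 3 B libraries lost this call (0.255 to 0.285), while leaving out the bladders of low RNA integrity gave 1.46 ± 0.18 (adjusted p = 0.000225). U was below B by -1.50 ± 0.42 (adjusted p = 0.0161, and 0.125 with counts summed per mouse), and UT against BB was 0.10 ± 0.23 (adjusted p = 0.833).

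Cdk4 (chr10:127063534-127067920, plus strand) and Cdk6 (chr5:3341485-3531008, plus strand), the partner kinases of cyclin D, rose together in UT. Cdk4 ran from 106 CPM through 207 to 294 in UT, from 30.2 (UN 6) through 132 to 239 in UN and from 72.4 through 80.9 to 104 in U. Cdk6 ran from 10.7 CPM through 18.4 to 48.3 in UT, from 4.71 through 12.6 to 24.1 in UN and from 7.03 through 8.78 to 10.8 in U. For Cdk4 all UT libraries lay above all of U, and for Cdk6 10 of 11 did. Against U the log2 difference in UT was 1.11 ± 0.26 for Cdk4 (edgeR adjusted p = 0.00167) and 1.13 ± 0.30 for Cdk6 (adjusted p = 0.00392). In UN it was 0.56 ± 0.28 for Cdk4 (adjusted p = 0.175) and 0.26 ± 0.31 for Cdk6 (adjusted p = 0.599).

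UT exceeded UN by 0.86 ± 0.28 in Cdk6 (edgeR adjusted p = 0.0576). The call was missed without UT 2, UN 2, UN 6 or UT 10 at 0.104 to 0.123. With the mouse as a replicate block the adjusted p was 0.789. In Cdk4 UT exceeded UN by 0.55 ± 0.24 (edgeR adjusted p = 0.134), which passed without UN 3, UN 7 or UT 8 at 0.0303 to 0.0762. Of 12 other settings, Cdk6 passed in 5 and Cdk4 in 2, DESeq2 and limma-trend (0.0892 by limma-trend). With RNA integrity as a covariate Cdk4 had an edgeR adjusted p of 0.849. Over these settings the log2 difference ran from 0.39 to 0.95 for Cdk6 and from 0.17 to 0.68 for Cdk4. In bladder, Cdk4 ran from 35.4 CPM (BB 3) through 210 to 500 (BB 6) in BB, with 149, 153 and 154 in B. Cdk6 ran from 3.37 CPM (BB 3) through 17.0 to 33.8 in BB, with 8.67, 8.72 and 14.4 in B. With all 9 bladders neither passed in edgeR (0.54 ± 0.41, adjusted p = 0.383, and 0.95 ± 0.45, adjusted p = 0.182), while Cdk6 passed in DESeq2 (1.02 ± 0.41, adjusted p = 0.0493) and with RNA integrity as a covariate in edgeR (1.15 ± 0.36, adjusted p = 0.0365). Without those of low RNA integrity both did in edgeR, at 0.56 ± 0.14 (adjusted p = 0.0118) and 1.23 ± 0.31 (adjusted p = 0.0137), and without BB 3 alone Cdk6 did (0.0597).

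The wider pathway was read from 27 further genes written down by name. In UT against U 17 were higher and 4 lower at edgeR adjusted p under 0.1 (9 and 3 with counts summed per mouse, 10 and 4 with RNA integrity as a covariate), where 29.4% and 24.7% of all genes were, with a median log2 fold change of 0.68 against 0.08 over all genes. Of the 7 higher by at least 2-fold, E2f8 (4.38) and E2f7 (1.65) are repressor E2Fs and E2f2 (3.06) is an activator. Also among them, Mybl2 (3.43) is the MYB factor of the MYB and MuvB complex, and Cdkn1a (2.98) the p21 inhibitor and p53 target. The last were Ccne1 (1.80), cyclin E1, and Skp2 (1.65), the ligase part that degrades p27. Among those higher by less were Cdk2 (0.89), Cks1b (0.89), E2f4 (0.88), E2f3 (0.79), Ccne2 (0.75), E2f1 (0.72), Lin54 (0.68), Tfdp1 (0.55), Lin9 (0.50) and Lin37 (0.47). The 4 that fell were Cdkn1c (-1.54), the p57 inhibitor, Lin52 (-1.25), Ccnd3 (-0.58) and E2f6 (-0.41).

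In UN against U 4 of the 27 were higher, each by at least 2-fold (E2f8 3.11, Cdkn1a 2.98, E2f2 2.43 and Mybl2 2.18), a share close to that of all genes (15.1%, and 11.9% with 2-fold), and Lin52 (-0.67) and E2f6 (-0.37) were lower. With mouse as a random effect or with counts summed per mouse 2 were higher. UT exceeded UN in Skp2 (1.0), Cdk2 (0.62) and E2f4 (0.60) and was lower in Cdkn1c (-0.87) and Lin52 (-0.58), 3 and 2 of the 27 where 6.26% and 12.3% of all genes were. With mouse as a random effect 1 was higher and 1 lower, and 0 passed with the replicate block, counts summed per mouse, RNA integrity as a covariate or without the libraries of low RNA integrity (0, 11, 1 and 7 with unadjusted p under 0.05), where DESeq2 on all libraries of the main test called 5 and 2. In BB against B 7 were higher by at least 2-fold and 0 were lower (E2f8 4.59, E2f7 4.00, Mybl2 2.73, Cks1b 2.62, Ccne1 2.59, Ccne2 1.86 and Lin9 1.27), where 7.08% of all genes were higher. DESeq2 called 11 higher by at least 2-fold, along with 4430 of all 17984 genes. Without the libraries of low RNA integrity edgeR called 14 (12.1% of all genes), with 2 lower at adjusted p alone (19%). With library code range as a covariate 7 were higher and 1 lower by at least 2-fold, where 3999 and 1403 of all genes were. The inhibitor Cdkn1a stood at 15.2 to 22.5 CPM in U and at 55.6 CPM or more in UN and 79.3 or more in UT. Cdkn2d, the fourth INK4 gene, passed in U against B alone (1.33, edgeR adjusted p = 0.0651). The remaining ones, Ccnd2, Cdc25a, E2f5, Tfdp2 and Rbbp4, passed in neither BBN comparison with untreated tissue.

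E2F target genes, 25 genes of DNA replication and mitosis, moved almost wholly in 1 direction. Their summed level was 219 to 262 CPM in U, 259 to 1420 in UN (median 491) and 476 to 2770 in UT (median 986), and 349 to 374 in B against 557 to 2010 in BB. By edgeR, 24 of 25 were higher in UT than in U, 15 in UN than in U and 17 in BB than in B, with 0 lower in each, where 29.4%, 15.1% and 7.3% of all genes were higher. The count for UN was 5 with mouse as a random effect and 0 with counts summed per mouse (12 with unadjusted p under 0.05, and 17 called by DESeq2 on single libraries). Ccnb1, cyclin B1, changed most in all 3 (log2 4.95, 3.62 and 5.12). Between UT and UN 8 were higher, led by Top2a (1.49), and 1 was lower, Tyms (-1.16), where 6.26% and 12.3% of all genes were. With all 11 UT libraries 1 was higher and 0 lower, and with mouse as a random effect 4 and 0. With the mouse as a replicate block or without the libraries of low RNA integrity 0 passed (2 and 13 with unadjusted p under 0.05). The count was also 0 with RNA integrity as a covariate, counts summed per mouse or only the 2 groups compared (0, 19 and 15 with unadjusted p under 0.05). DESeq2 called 17 higher and 1 lower. The libraries with the highest sums were also high in Rbl1 and Cdk6: UT 2 (2770 CPM) and UT 10 (2690) held the 2 highest values of both genes in UT, and UN 7 (1420) the highest in UN. Cell type markers differed between these groups as well. From U to UT the median sum went from 2530 to 6290 CPM for urothelium, from 48500 to 13300 for adipocytes and from 2730 to 775 for smooth muscle, and UT 2 and UT 10 had adipocyte sums of 56.2 and 1040 CPM. Their part in the E2F target sums was not tested.

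**Figure D5:**
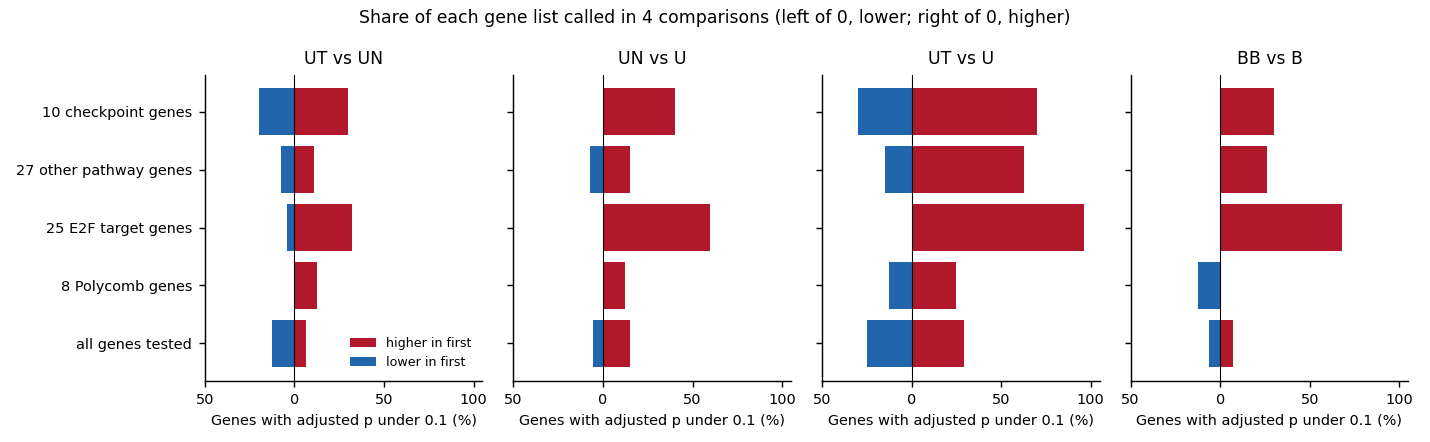
Share of each gene list with edgeR adjusted p under 0.1 in 4 comparisons, higher to the right and lower to the left of 0, beside all genes tested. Of the E2F target genes 24 of 25 were higher in UT than in U, and none was lower, while the 10 checkpoint genes were split into 7 higher and 3 lower.

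Polycomb genes, whose products are known to silence the Cdkn2a locus, were read from 8 genes, of which 2 were higher (Ezh2 and Eed) and 1 lower (Cbx8) in UT than in U, shares no larger than those of all genes (29.4% and 24.7%). Ezh2, the histone methyltransferase, was higher than in U in UT (log2 1.63 ± 0.29, edgeR adjusted p = 0.000146) and in UN (0.75 ± 0.30, adjusted p = 0.0927), and Cbx7 was lower in BB than in B (-1.21). Mtap, a metabolic enzyme gene next to Cdkn2a on chromosome 4, did not pass in any of the 7 comparisons. It was 0.41 ± 0.22 on the log2 scale in UT over U (edgeR adjusted p = 0.134) and 0.26 ± 0.49 in BB over B (adjusted p = 0.758).

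Over all 37 libraries, the genes whose log2(CPM + 1) tracked that of Cdkn2a most closely among 18156 were Bcl7c and Prss32 (Pearson r = 0.90 each), Avpi1 and Cib1 (0.89 each) and Snrpb2 (0.88). Among the members the closest were Cdk4 (0.66) and Ccnd1 (0.61), and the most opposed was Rb1 (-0.72). These values describe the table only, since the libraries fall into groups and share tissue makeup, mice and depth.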

How the data were processed

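WTS was made from total RNA (SMARTerHT and Nextera XT kits, which do not mark strand) of 37 samples. The authors mapped the reads to GRCm38/mm10 and deposited estimated counts per gene symbol, in part fractional (21.1% of values above 0) and not normalized. The submitters' processing notes name TopHat2 2.1.1 and Cuffdiff 2.2.1, and the counting rule is not given in the sources used here. Rounded counts went into the quasi-likelihood test of edgeR 4.0.16 under R 4.3.3, after filterByExpr and TMM normalization, with the study's thresholds of a false discovery rate under 0.1 and 2-fold. One fit held 10 UT, 7 UN and 6 U libraries, one 9 BB and 3 B, one UN, U, BB and B together (U against B, interaction), and one UT and BB. CPM were computed over library totals for all 37 libraries. Tables and figures used Python 3.11.15 with numpy 2.4.6, pandas 2.3.3, scipy 1.17.1 and matplotlib 3.10.9. Depth limited genes of few counts, and the shallowest library had 3557697 counts. Intervals cover counting error only.

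The procedure was tested on simulated counts. These gave all genes the same spread between libraries, took libraries as independent and changed only genes above a minimum mean count. They do not show recovery with unequal spread between genes, libraries of the same mouse or degraded RNA. For UT against UN, 98% of 200 genes changed 4-fold were recovered among 15803, with 19 false calls. For BB against B, 4.5% were recovered at 4-fold (16872 genes) and 90.5% at 16-fold (16783 genes).

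UT, UN and BB libraries of the same number come from 1 mouse, as the labels number them. Taken as deviations from each group's mean, such libraries correlated with a median of -0.0203 over 6 UT and UN pairs (0.00757 over other pairs), 0.13 over 9 UT and BB pairs (-0.0172 over others) and -0.0454 over 6 U and B pairs (0.0191 over others). No pair of libraries in a group was a copy by chi-square of counts (7.72 or more for each degree of freedom).

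The members and the gene lists were chosen with earlier results of these data known. Named were the 10 members, the other pathway genes, the most changed gene of each list and the 5 genes most like Cdkn2a. Alternatives were DESeq2 1.42.0, limma 3.58.1 (limma-trend, and voom with mouse as a random effect), RLE normalization, no filter on low counts, other sets of libraries, the mouse as a replicate block, counts summed per mouse, RNA integrity and library code range as covariates, and leaving out each library. Library code range set libraries of late codes against the rest, and the sample labels do not say what it stands for. It was fitted for UT against UN, BB against B and UT against BB only.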

Additional observations from a re-analysis of the deposited data

Results flagged for a closer look

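Of 40 groups of libraries, 1 for each gene and group of 4 to 10, 4 held a library far from all others, where chance flags about 1 in 20. Cdkn2b was 25.1 CPM in U 3L, with the next U library at 18.8. Rbl1 was 44.6 CPM in UN 7, with the next at 23.0, and UN 7 also had the highest Ccnd1, Cdk6 and E2F target sum of UN. Rbl2 was 109 CPM in UT 8, with the next at 66.6 among 10 libraries without UT 9, which had 80.0 (groups of 11 were not tested). Cdk4 was 500.0 CPM in BB 6, the bladder whose library name carries a T, with the next at 274, and BB 6 also had the highest Cdkn2a and the lowest Rb1 of BB.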

How the results depend on the processing

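Of 688 values of single members refitted with another choice of tool, filter, scaling, covariate or libraries, 42 changed sign. The threshold here was an adjusted p under 0.1 with 2-fold. Of the 688 values, 601 kept their direction and their side of it, 26 missed it and 19 came to pass it. Changes of calls made at adjusted p alone were not counted here. Of 138 counts of members called, 106 stayed within 1.5 times. Counts below are members past an adjusted p of 0.1 and 2-fold, against the counts of the text. In UT against UN, 0 members were higher, but 1 with DESeq2, no filter on low counts or mouse as a random effect, and 2 with limma-trend or library code range as a covariate, while the 1 lower became 0 with RNA integrity as a covariate, without the libraries of low RNA integrity, with only the 2 groups compared, with mouse as a replicate block or with counts summed per mouse. In UN against U the 2 higher became 1 with only the 2 groups compared, where the filter on low counts removed Cdkn2a, and 0 with counts summed per mouse, and in UT against U the 5 higher became 3 with RNA integrity as a covariate. In BB against B the 3 higher became 1 with no filter and 5 with RNA integrity as a covariate or without the libraries of low integrity, and the 0 lower became 1 with DESeq2 or library code range. In U against B the 2 lower became 1 with DESeq2, RLE, no filter, RNA integrity as a covariate, without the libraries of low integrity, all 10 BB libraries or the replicate block, and 0 with counts summed per mouse. For BBN by tissue the 0 lower became 1 with limma-trend or without the libraries of low integrity, and in UT against BB the 1 higher became 0 with limma-trend, mouse as a random effect, the replicate block or without the libraries of low integrity. The replicate block left 0 of 15048 genes called in UT against UN (618 at unadjusted p under 0.05), against 438 higher and 1245 lower at 2-fold. Apart from the counts given for it, it ended the calls of Cdkn2c in UT against UN (-1.51) and UT against BB (0.77). It also ended the other calls of UT against UN at adjusted p alone. In U against B it took Cdkn2b under 2-fold (-0.94) at a lower edgeR adjusted p (0.000613, but 0.273 with counts summed per mouse). Members lower there at adjusted p alone went from 2 to 4, and to 0 with counts summed per mouse. Of all 15318 genes in the block fit 4802 were higher and 5001 lower in U, against 1453 and 1821 of 18757 in the main fit. Leaving out 1 library gave 0 to 4 members higher (4 without UN 7) and 1 to 2 lower (2 without UN 2, UN 3 or UT 8) in UT against UN, with 0 higher by adjusted p alone without UN 6. It gave 4 to 7 higher in UT against U, 1 (without B 1) to 4 higher in BB against B, 1 to 2 lower in U against B and 0 to 1 higher in UT against BB. The signs that changed belong to log2 differences that did not pass the test, from -0.62 (Cdkn2a in UT against BB) to 0.23 (Cdk6 in UT against BB). Rbl2 in UT against UN (-0.01) was 0.04 with limma-trend, no filter or the replicate block and 0.05 with all 11 UT libraries (-0.12 to 0.13 leaving out 1 library). Rbl1 in UN against U (0.08) was -0.01 with limma-trend (-0.17 to 0.16). Rb1 in BB against B (0.01) was -0.04 with limma-trend, -0.05 with no filter, -0.06 with mouse as a random effect, -0.03 with RNA integrity as a covariate, -0.01 without the libraries of low integrity, and -0.08 with code range or all 10 BB libraries (-0.08 to 0.11). In U against B, Cdkn2a (0.01) was -0.04 with limma-trend, -0.28 with the random effect and -0.23 with the RNA integrity covariate (-0.85 to 0.24), which also gave 0.22 for Rbl1 (-0.27 to 0.04) and 0.34 for Rbl2, while Cdk6 ran from -0.09 to 0.32. For BBN by tissue, Cdk4 (0.04) was -0.09 with DESeq2 or RLE, -0.01 with the random effect, -0.07 with the covariate and -0.26 with all 10 BB libraries (-0.16 to 0.20), and RLE moved the median of all genes there from -0.118 to -0.224. In UT against BB the RNA integrity covariate gave 0.12 for Cdkn2a and Rb1, -0.11 for Ccnd1, 0.06 for Cdk4 and -0.07 for Cdk6. Without the libraries of low integrity these were 0.13 for Cdkn2a, 0.12 for Rb1, -0.08 for Ccnd1 and 0.09 for Cdk4. No filter gave 0.10 for Rb1, 0.03 for Rbl1 and 0.13 for Cdk4, the random effect 0.02 for Rb1 and 0.06 for Cdk4, limma-trend 0.05 for Cdk4, code range 0.05 for Rbl1, all 10 BB libraries 0.04 for Rb1 and 0.03 for Rbl1, and the replicate block 0.06 for Rbl1 and 0.12 for Cdk4. Leaving out 1 library there gave -0.19 to 0.10 for Rb1, -0.22 to 0.08 for Rbl1, -0.02 to 0.19 for Ccnd1, -0.12 to 0.17 for Cdk4 and -0.01 to 0.25 for Cdkn1b. Where all 37 libraries were scaled by TMM, 43 of 50 mean levels moved by less than 1 SD, and in B the means became 0.0581 CPM for Cdkn2a, 41 for Cdkn2b, 6.3 for Cdkn1b, 23.8 for Rb1, 76.1 for Rbl2, 38.9 for Ccnd1 and 135 for Cdk4. The cause of these changes was not tested. Depth limits Cdkn2a most, with at most 3 counts in each untreated library, and U and B rest on the same 3 mice.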
